A study of Mus musculus with 14 samples.

Results

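The LPS response of Rheb knockout microglia was examined in 7 of the 14 libraries of the series, 4 from knockout mice given LPS and 3 from knockout mice given PBS. The libraries were taken by their labels in the deposited table of TPM (transcript abundance normalised for transcript length and library total). Of the 41739 genes in the table, the 18105 that lie on autosomes and reached 1 TPM in at least 3 of the 14 libraries were tested. LPS, lipopolysaccharide, is the endotoxin of Gram-negative bacteria, and PBS is the saline control. Knockout mice (KO) had the genotype Rheb F/F with Tmem119-cre ER: floxed Rheb alleles and a tamoxifen-activated Cre recombinase driven by Tmem119, a gene of microglia. The comparison mice (WT) were Rheb F/F without Cre. All had received tamoxifen per the series text, which gives 8 weeks as an age or as the time after tamoxifen. They were injected intraperitoneally once a day for 4 days with PBS or with LPS at 1.0 mg/kg, and microglia were purified from the brain by MACS, magnetic bead sorting. All 7 KO libraries carried the floxed alleles and Cre alike, so genotype was constant within the comparison. Cre acts where Tmem119 is active, and other cells in the preparation keep their Rheb alleles. The labels do not say that each library came from a separate mouse, so p-values measure the spread between libraries.

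LPS is recognised by the receptor Tlr4 with its co-receptors Cd14 and Ly96. Adaptor proteins then lead to the transcription factor NF-kB, which induces cytokines and chemokines, and to interferon regulatory factors, which induce type I interferon and its target genes. In resting brain, microglia carry a homeostatic set of transcripts, such as the purinergic receptor P2ry12, that is known to be reduced in inflamed tissue. Rheb encodes a small GTPase that switches on mTORC1, a kinase complex that promotes protein synthesis and restrains autophagy and lysosome formation.

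Treatment ran together with library composition. The KO LPS libraries held 8.00 (KO_LPS_4) to 21.8 M reads and the KO PBS libraries 16.25 to 20.7 M reads, as recovered from the table. Gm23935, an annotated feature of under 200 nt, took 5.0% to 7.34% of the TPM total under LPS and 0.0705% to 0.248% under PBS. Values were therefore rescaled by the median of ratios to a common reference (scaled TPM), with factors of 0.863 to 0.988 under LPS and 1.10 to 1.17 under PBS. The series text describes female mice. Xist, the transcript of the inactive X chromosome, stood at 410.6 to 606 scaled TPM in the LPS libraries and at 0.124 or less in the PBS libraries, and the Y-linked Ddx3y at 0.117 or less and at 110.3 to 125. Sex transcripts, library composition and treatment cannot be told apart in any value below, which is why X and Y genes were left out. KO_LPS_3 also held pituitary hormone transcripts, with growth hormone (Gh) at 19900 scaled TPM. Across genes, KO libraries of 1 treatment correlated with Pearson's r of 0.940 to 0.965, and LPS with PBS libraries with r of 0.912 to 0.924.

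Rheb itself, the targeted gene, stood at 15.02, 16.3 and 16.7 under PBS and 26.1, 26.6, 23.4 and 20.6 under LPS in scaled TPM. Here and below the 3 PBS values are given in the order KO_PBS_911, KO_PBS_912 and KO_PBS_915, and the 4 LPS values in the order KO_LPS_1 to KO_LPS_4. All LPS libraries lay above all PBS libraries, at a mean of 24.2 ± 2.75 (SD, n = 4) against 16.0 ± 0.890 (n = 3). The exact two-sided permutation test of the means gave p = 0.0571, where 35 splits allow no p below 0.0286. In the limma fit over all genes, the source of every adjusted p below, Rheb rose (0.56 ± 0.11 (SE), adjusted p = 0.00334). On TPM as deposited the limma rise was 0.30 (adjusted p = 0.0586). As the count covers the whole transcript, the value does not separate recombined from intact alleles.

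The microglial identity of the libraries was read from a list of 12 microglia markers, none at 0 in any KO library. Their summed level was 32320 to 36720 scaled TPM under PBS and 20170 to 27990 under LPS, without overlap. Monocyte markers summed to 607.6 to 919 and 2534 to 3353, and neutrophil markers to 5607 to 8037 and 13380 to 28830, also without overlap. T and NK cell markers, at low levels, summed to 45.82 to 63.54 under PBS and 68.33 to 149.8 under LPS, again without overlap. Erythroid markers went the other way, from 133.5 to 369 under PBS to 43.2 to 59.2 under LPS. Border macrophage, B cell, astrocyte, neuron, oligodendrocyte, endothelial, choroid plexus and pituitary sums overlapped between the treatments. In bulk samples, fewer cells of a type and less RNA of a gene per cell cannot be told apart. The part of these other cells in the Rheb value and in the results below was not tested.

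**Figure D1:**
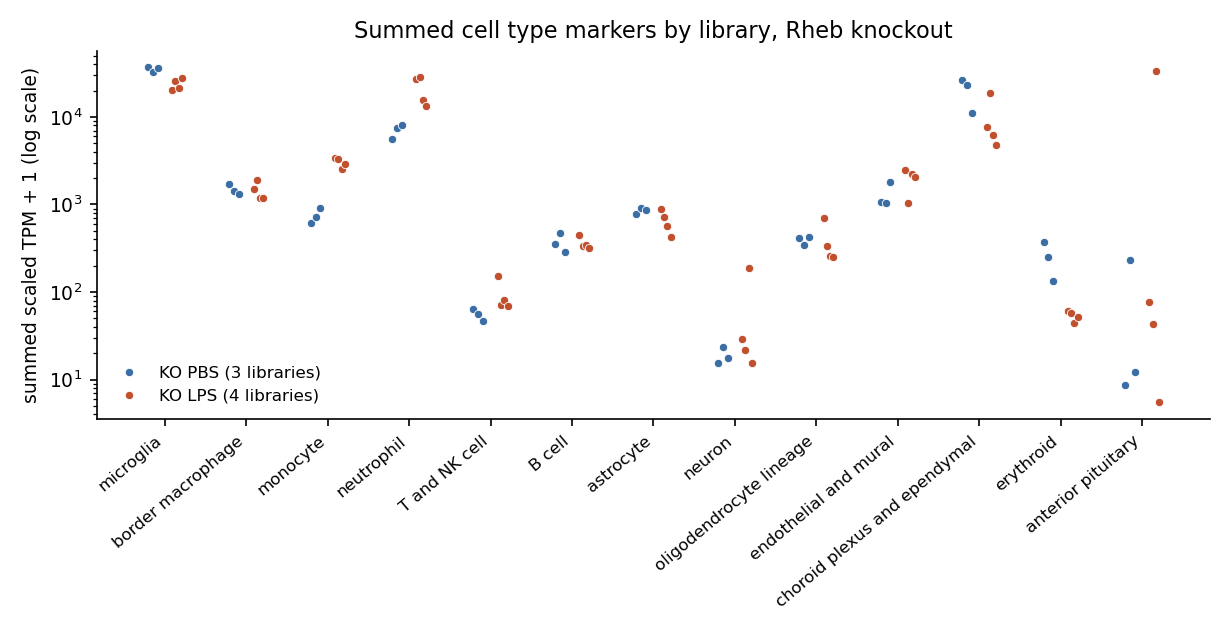
Summed scaled TPM plus 1 (log axis) of the cell type marker lists in each of the 7 KO libraries. Each point is 1 library, blue for PBS and orange for LPS. Microglia and erythroid markers were lower in all 4 LPS libraries than in all 3 PBS libraries. Monocyte, neutrophil and T and NK cell markers were higher in all 4, and 1 LPS library held the pituitary markers at 33440.

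Under LPS, 4146 of the 18105 genes were called at an adjusted p under 0.05 (22.9%). Of these, 2294 rose (12.7% of genes tested) and 1852 fell (10.2%). The rises were larger than the falls: with a log2 difference of at least 1 in size, 1023 genes rose (5.65%) and 234 fell (1.29%). The direction of small differences depended on the scaling. Rises made up 55.3% of calls here, 40.1% of 4759 calls after quantile normalisation and 22.5% of 6323 calls on TPM as deposited. Those scalings moved the median log2 difference of all genes from 0.00 to -0.09 and -0.22. On TPM as deposited the falls were more than 1.5 times as many in 22 of the 28 gene lists below that are not cell type markers, and the rises fewer by that factor in 10. Without KO_PBS_911 the calls were 2658. Differences are on the scale of log2(scaled TPM + 1), which understates the change of low genes.

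The largest rises and falls were named among called genes whose LPS and PBS libraries did not overlap, so the lack of overlap was fixed by that rule. The 2 largest rises were in genes nearly silent under PBS. Saa3, an acute-phase serum amyloid, stood at 1.28, 0 and 0.303 under PBS and 1340, 2845, 1077 and 1489 under LPS. All 4 LPS libraries lay orders of magnitude above the highest PBS library, and the log2 difference was 10.10 ± 0.41 (SE), adjusted p = 3.07e-08. Marco, a macrophage scavenger receptor, stood at 0.483, 0 and 0.082 under PBS and 467, 735, 573 and 495 under LPS (8.90 ± 0.29 (SE), adjusted p = 4.63e-09). Both genes were thus low in every PBS library and high in every LPS library. Cd5l, a secreted macrophage protein, went from 0.789 to 173 scaled TPM on average (log2 difference 6.60). Acod1, the enzyme that makes itaconate, stood at 0.708, 1.35 and 0.903 under PBS and 243, 123, 129 and 123 under LPS (6.24 ± 0.63 (SE), adjusted p = 2.76e-05). KO_LPS_1 was the highest library for Acod1, and all 4 LPS libraries lay far above the PBS range.

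Among the next in size were receptors and secreted proteins of myeloid cells. Treml4 went from 2.61 to 162 scaled TPM, Cd300e, an activating receptor, from 2.47 to 140.1, and Clec4e, the lectin Mincle, from 3.94 to 146. F10, coagulation factor X, rose by 4.87 on the log2 scale, Acp5, the tartrate-resistant acid phosphatase, by 4.81, and Serpina3f, a serine protease inhibitor, by 4.82. Rgs16, which shortens G protein signals, rose by 4.70. Ackr1 and Sele, which are known from the endothelium of venules, also rose. Sele, E-selectin, was listed at 0, 0 and 0.0542 under PBS and 72.7, 13.9, 34.5 and 55.4 under LPS, and Ackr1, a chemokine-binding receptor, went from 2.04 to 158 scaled TPM.

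The largest falls included genes of macrophages and dendritic cells. Retnla, a secreted protein of alternatively activated macrophages, stood at 44.7, 30.6 and 31.1 under PBS and 0.678, 2.25, 2.75 and 0.732 under LPS (-3.88 ± 0.48 (SE), adjusted p = 0.00013). The lectins Mgl2 and Cd209a, known from macrophages and dendritic cells of the brain's borders, fell as well. Neither is in the list of 14 border macrophage markers, of which 2 rose and 0 fell (median -0.165). On TPM as deposited and after quantile normalisation 1 of that list fell. Mgl2 stood at 82.6, 83.2 and 58.05 under PBS and 10.4, 11.4, 15.1 and 5.86 under LPS (-2.74 ± 0.29 (SE), adjusted p = 3.55e-05), and Cd209a fell with a log2 difference of -2.18. For both genes every LPS library was below every PBS library, which the rule for naming the largest falls required. Ccl24, a chemokine for eosinophils, went from 15.8 to 3.903 scaled TPM. Further falls were those of Defb11, a defensin (-2.75), Upk1b, a tetraspanin of the homeostatic microglia list (-2.19), Myo18b, a myosin (-2.08), Slc2a5, the fructose transporter of microglia (-1.76), and Tnfrsf17 (-1.71). Hba-a2, a haemoglobin chain with near copies, had a log2 difference of -3.12. That call was lost without KO_PBS_911 (adjusted p = 0.0761) or KO_PBS_912 (0.0587), and erythroid markers moved with it, as given above.

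**Figure D2:**
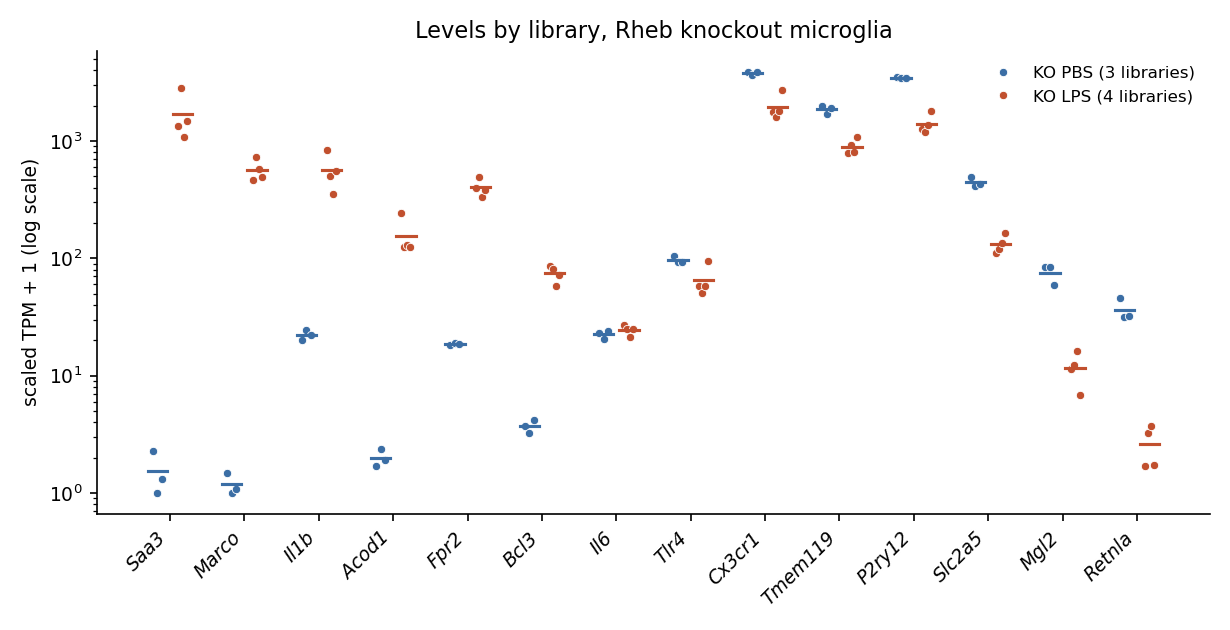
Scaled TPM plus 1 (log axis) of 14 genes in the 7 KO libraries. Points are libraries, blue for PBS and orange for LPS, and bars are group means. Saa3, Marco, Il1b, Acod1, Fpr2 and Bcl3 were higher and Cx3cr1, Tmem119, P2ry12, Slc2a5, Mgl2 and Retnla lower in every LPS library, while the groups overlapped for Il6 and Tlr4.

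To show the promoters of genes that moved together, the RefSeq windows of 250 bases before to 50 after each gene start (build GRCm38.p6) were searched on both strands for 2 motifs. They were GGGNNTTTCC, a form of the NF-kB site, and GAAANNGAAA, a form of the interferon-stimulated response element (ISRE). The genes tested had 14973 windows, for 11765 of them. The NF-kB form was in 1.63% of all 32851 windows of the table, in 1.76% of the windows of tested genes, in 5.44% of those of genes that rose by a log2 of at least 1, and in 0.939% of those of genes that fell. The ISRE form was in 3.44% of all windows, and in 3.24%, 6.77% and 2.65% of the same windows. Among lists, the NF-kB form was in 30.4% of 23 windows of NF-kB signalling genes and the ISRE form in 47.7% of 65 windows of interferon response genes. Neither form was in the 51 windows of homeostatic microglia genes. The 2 forms were in 1 window together 11 times. A match describes these letters and is no evidence of binding, and no match says nothing of the factor.

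Below are the 250 bases before the start of 6 genes that rose, chosen after their values were seen: 2 neighbouring chemokine genes, 2 interferon-induced genes, 1 gene with both motifs, and the gene with the largest rise. Sequences run 5′ to 3′ on the strand of the gene, and capitals mark the motif matches. Cxcl1 lies at chr5:90890995-90891244, plus strand; Cxcl2 at chr5:90903649-90903898, plus strand; Gbp3 at chr3:142559794-142560043, plus strand; Ifit3 at chr19:34583279-34583528, plus strand; Gbp5 at chr3:142496684-142496933, plus strand; and Saa3 at chr7:46715677-46715926, minus strand. These are coordinates of the RefSeq windows, as the build of the deposited table is uncertain.
Cxcl1: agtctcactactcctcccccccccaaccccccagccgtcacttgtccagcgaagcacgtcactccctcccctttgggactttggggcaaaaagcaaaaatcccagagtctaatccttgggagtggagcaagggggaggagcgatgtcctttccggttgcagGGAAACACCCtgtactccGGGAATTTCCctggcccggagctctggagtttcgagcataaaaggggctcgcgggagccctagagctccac
Cxcl2: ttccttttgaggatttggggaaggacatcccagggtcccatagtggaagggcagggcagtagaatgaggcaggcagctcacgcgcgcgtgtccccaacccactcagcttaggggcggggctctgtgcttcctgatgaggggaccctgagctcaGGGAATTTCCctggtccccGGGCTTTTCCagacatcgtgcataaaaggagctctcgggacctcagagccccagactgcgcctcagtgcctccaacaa
Gbp3: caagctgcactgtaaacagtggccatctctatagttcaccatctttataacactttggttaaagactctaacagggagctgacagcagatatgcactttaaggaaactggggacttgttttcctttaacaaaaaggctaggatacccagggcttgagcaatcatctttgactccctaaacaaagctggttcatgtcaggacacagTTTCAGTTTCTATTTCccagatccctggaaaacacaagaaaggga
Ifit3: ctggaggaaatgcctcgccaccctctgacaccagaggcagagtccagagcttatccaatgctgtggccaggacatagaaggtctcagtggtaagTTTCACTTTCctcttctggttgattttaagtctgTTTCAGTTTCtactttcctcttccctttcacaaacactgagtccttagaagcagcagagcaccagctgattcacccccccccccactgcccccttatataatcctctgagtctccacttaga
Gbp5: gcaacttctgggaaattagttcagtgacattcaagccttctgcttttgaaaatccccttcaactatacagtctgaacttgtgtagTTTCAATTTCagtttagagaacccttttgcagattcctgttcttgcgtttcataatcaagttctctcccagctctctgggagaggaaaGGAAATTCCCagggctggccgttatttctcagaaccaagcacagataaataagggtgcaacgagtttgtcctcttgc
Saa3: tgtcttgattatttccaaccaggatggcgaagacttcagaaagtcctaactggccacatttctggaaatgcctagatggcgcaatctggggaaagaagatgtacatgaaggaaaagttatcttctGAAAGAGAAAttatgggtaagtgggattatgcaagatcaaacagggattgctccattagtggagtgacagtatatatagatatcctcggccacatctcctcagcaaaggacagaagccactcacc
Cxcl1 and Cxcl2 each hold 2 NF-kB forms, which end 62 and 69 bases before the start at their nearest. In Gbp3 the 2 ISRE forms overlap, and in Ifit3 they are separate, at 156 and 122 bases before the start. Gbp5 holds an ISRE form 165 and an NF-kB form 77 bases before the start. In Saa3 the match is an ISRE form 125 bases before the start.

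The genes that receive the LPS signal moved in both directions. Of 32 tested members, 13 rose and 5 fell, with a median log2 difference of 0.16 against 0.00 over all genes. That median was -0.10 on TPM as deposited, where 12 rose and 10 fell, and without KO_PBS_911 the falls numbered 2. Tlr4 stood at 103, 92.3 and 92.02 under PBS and 56.8, 49.7, 57.6 and 94.01 under LPS, and KO_LPS_4 lay within the PBS range while the other 3 LPS libraries lay below it. Tlr4 fell (-0.60 ± 0.16 (SE), adjusted p = 0.0184), a call lost without KO_PBS_911 (adjusted p = 0.0741), in a fit of the 7 KO libraries alone (0.0785) and without the 2 libraries rich in pituitary transcripts (0.0565). The co-receptor Cd14 went the other way, at 501, 413 and 431 under PBS and 1374, 1729, 921 and 1005 under LPS (1.45 ± 0.26 (SE), adjusted p = 0.00159). Tlr2, which senses bacterial lipoproteins, stood at 109, 101 and 93.8 under PBS and 468, 469, 268 and 324 under LPS (1.86 ± 0.27 (SE), adjusted p = 0.000365). For both, all LPS libraries were above all PBS libraries.

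The largest rises of this list were in a kinase and an inhibitor. Ikbke, a kinase that activates interferon regulatory factors, stood at 0.453, 1.69 and 1.44 under PBS and 83.6, 88.1, 64 and 69.3 under LPS (5.18 ± 0.34 (SE), adjusted p = 1.39e-06). Irak3, which dampens receptor signalling, stood at 4.85, 4.78 and 6.96 under PBS and 89.5, 95.8, 61.2 and 72.7 under LPS (3.62 ± 0.29 (SE), adjusted p = 4.62e-06). Both were higher in every LPS library by a wide margin. Tlr9, a receptor for bacterial DNA, fell from 141 to 78.97 scaled TPM (-0.85), and Inpp5d, the phosphatase SHIP1, from 508 to 330.2 (-0.63). Cd180, a relative of Tlr4, had a log2 difference of -0.70 that was called with all libraries and had an adjusted p of 0.055 without KO_PBS_911.

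Of 22 genes of NF-kB signalling and feedback, 12 rose and none fell (median 0.81). Inhibitors of the pathway and subunits of its alternative branch were among those that rose. Bcl3, an atypical IkB protein, stood at 2.703, 2.23 and 3.19 under PBS and 85.3, 80.3, 57.1 and 70.7 under LPS (4.32 ± 0.26 (SE), adjusted p = 7.84e-07). Tnip1 and Tnip3, which restrain NF-kB with A20, rose by 2.73 and 2.28, and the subunits Relb and Nfkb2 by 2.42 and 1.88. Nfkbia, the classical IkB-alpha, did not pass the test, at 1638, 780.1 and 740.1 under PBS and 1419, 1304, 1062 and 1547 under LPS (log2 difference 0.43, adjusted p = 0.29). There KO_PBS_911 was the highest of the 7 libraries, and without it the difference was 0.80 (adjusted p = 0.0341).

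Cytokine ligands rose in 14 of 21 tested members and fell in none. Il1b, the pyrogenic interleukin 1-beta, stood at 19.1, 23.5 and 21.3 under PBS and 840.5, 501, 352 and 549.9 under LPS (4.59 ± 0.43 (SE), adjusted p = 1.52e-05). Il1rn, the antagonist of its receptor, rose too, from 1.68 to 45.4 scaled TPM (4.02). The anti-inflammatory Il10 stood at 1.702, 0.151 and 0.361 under PBS and 16.6, 22.3, 10.5 and 19.1 under LPS (3.44 ± 0.31 (SE), adjusted p = 1.15e-05). Csf3, the granulocyte growth factor G-CSF, was listed at 0 in all 3 PBS libraries and at 13.2, 11.98, 9.204 and 15.2 under LPS (adjusted p = 6.1e-06). Csf1, the survival factor of microglia, rose by 1.29. For these 5 genes no LPS library overlapped a PBS library. The naming favoured large called changes, and Csf1 was added after its value was seen. Of all 42 cytokine and receptor genes tested, 24 were higher under LPS without overlap, against 17.2% of all genes.

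Tnf and Il6, classical early cytokines, did not share this pattern. Tnf stood at 79.8, 33.2 and 22.1 under PBS and 293, 139, 79.1 and 133 under LPS, with KO_LPS_3 just below the highest PBS library. Its difference of 1.86 ± 0.56 (SE), adjusted p = 0.0313, was called with all 7 KO libraries. The call was lost without KO_LPS_1 (adjusted p = 0.0801), KO_LPS_2 (0.0556), KO_PBS_912 (0.0984) or KO_PBS_915 (0.134), with a block by replicate number (0.0546), by voom, a limma fit that weights read counts, on the reads recovered from the table (0.0646) and without the filter on low genes (0.0559). Il6 stood at 22.3, 19.4 and 23.01 under PBS and 25.9, 23.9, 20.3 and 24.02 under LPS, with overlapping groups (0.12 ± 0.17 (SE), adjusted p = 0.659). With TPM as deposited, its difference was -0.14 (adjusted p = 0.531).

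Cytokine receptors split, with 8 of 21 rising and 4 falling. Falls numbered 9 among cytokine and receptor genes on TPM as deposited. Il1r2, a decoy receptor for interleukin 1, stood at 9.64, 7.97 and 10.4 under PBS and 152, 235, 69.5 and 85.3 under LPS (3.56 ± 0.46 (SE), adjusted p = 0.000169). Tgfbr1, a receptor chain for TGF-beta, which maintains microglial identity, stood at 1238, 1093 and 1161 under PBS and 475, 518, 500.5 and 766 under LPS (-1.07 ± 0.17 (SE), adjusted p = 0.000639). Every LPS library was below every PBS library for Tgfbr1, with KO_LPS_4 nearest to them. Il6ra fell by 0.62 and Il21r by 0.39 on the log2 scale, and the Il21r call was lost in a fit of the 7 KO libraries alone (adjusted p = 0.0613).

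Of 37 chemokine genes, ligands and receptors, 22 rose and 3 fell (median 1.13). Cxcl13, which attracts B cells, stood at 0.162, 1.54 and 0.137 under PBS and 105, 123, 86.7 and 43.1 under LPS (5.82 ± 0.49 (SE), adjusted p = 7.64e-06). The neutrophil-attracting Cxcl1 and Cxcl2, whose promoters are printed above, rose by 4.07 and 3.52. Cxcl1 stood at 2.08, 1.47 and 1.09 under PBS and 51.97, 22.6, 29.3 and 84.4 under LPS. Ccl2, which attracts monocytes, went from 73.7 ± 23.1 (SD, n = 3) to 433 ± 146 (n = 4) scaled TPM (2.52). The formyl peptide receptors Fpr1 and Fpr2, which sense bacterial peptides, stood out among the receptors. Fpr2 stood at 17.2, 18.1 and 17.5 under PBS and 399, 493, 333 and 378 under LPS (4.42 ± 0.35 (SE), adjusted p = 3.88e-06), and Fpr1 rose from 14.3 to 280.2 scaled TPM. Cx3cr1, the receptor of microglia for the neuronal chemokine fractalkine, stood at 3849, 3619 and 3891 under PBS and 1763, 1609, 1788 and 2698 under LPS (-0.98 ± 0.18 (SE), adjusted p = 0.00176), lower in all LPS libraries.

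Interferon response genes rose in 41 of 72 tested members, and 3 fell (median 0.95). The number of rises was 28 with any 1 of the 3 PBS libraries left out, and 24 by voom on recovered reads. In WT, 63 of the 72 rose and none fell, against 16.0% and 13.2% of all genes in WT. The difference of the responses was called for none of the 72. At an unadjusted p under 0.05 the response was lower in KO for 8 of them, against 6.16% of all genes, and higher for none. The log2 difference of the responses was negative for 63 of the 72. Ifitm1 and Ifitm2, which block virus entry, rose by 3.30 and 2.99, and the membrane protein gene Ms4a4c by 3.18. The guanylate-binding protein gene Gbp5 stood at 13.9, 13.8 and 13.7 under PBS and 155, 95.8, 104 and 83.5 under LPS (2.86 ± 0.20 (SE), adjusted p = 2.03e-06), with Gbp2 and Gbp3 at log2 differences of 2.30 and 1.48. Ifit3 rose by 1.86, a call lost by voom (adjusted p = 0.0828). Cxcl10, a chemokine induced by interferon, stood at 10.7, 10.9 and 5.33 under PBS and 106, 41.9, 28.8 and 42.6 under LPS, highest in KO_LPS_1. Its difference of 2.37 ± 0.70 (SE), adjusted p = 0.0277, was not called when KO_LPS_1 (adjusted p = 0.0715), KO_PBS_911 (0.0611), KO_PBS_912 (0.0571) or KO_PBS_915 (0.104) was left out, nor by voom (0.248). Irf8 and Irf5, interferon regulatory factors of the macrophage lineage, fell by 0.59 and 0.50 on the log2 scale.

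Acute-phase, scavenger and tolerance genes had the largest median of the lists other than cell type markers, 2.02, with 33 of 45 rising and none falling. In the acute-phase, NF-kB, V-ATPase and ribosomal protein lists no member was lower by limma at an unadjusted p under 0.05, and 0 were called lower by voom on recovered reads. On TPM as deposited 1 member was called lower in each of the acute-phase, NF-kB and V-ATPase lists. After quantile normalisation 1 V-ATPase gene was called lower. Besides Saa3, Marco and Acod1, Lcn2, an iron-scavenging lipocalin, stood at 88.1, 138 and 148 under PBS and 908, 1091, 627 and 493 under LPS (2.60 ± 0.44 (SE), adjusted p = 0.00117). Nos2, the inducible nitric oxide synthase, stood at 0.335, 1.51 and 0.889 under PBS and 41.2, 32.6, 11.7 and 16.8 under LPS and Ptgs2, the inducible cyclooxygenase, at 3.65, 4.61 and 3.72 under PBS and 111, 35.7, 53.2 and 79.9 under LPS. Both were low under PBS and higher in all LPS libraries (3.68 and 3.71), and the Nos2 call was lost by voom (adjusted p = 0.113). Neutrophils carry Lcn2 as well, and their markers moved the same way, as given above.

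Complement and Fc receptor genes rose in 14 of 30 members and fell in 1. C3, the central complement component, stood at 21.3, 32.2 and 33.03 under PBS and 322, 319, 231 and 221 under LPS (3.20 ± 0.40 (SE), adjusted p = 0.000125), and C4b rose by 1.60. Fcgr4, an activating Fc receptor, went from 26.6 ± 5.39 (SD, n = 3) to 327 ± 82.9 (n = 4) scaled TPM (3.56), and Ncf4, a subunit of the NADPH oxidase, rose by 1.72. The member that fell was Fcrls, a microglial Fc receptor-like gene, at 2475, 1994 and 2258 under PBS and 1108, 1427, 994 and 1090 under LPS (-0.97 ± 0.16 (SE), adjusted p = 0.00116). Of 15 inflammasome genes, 7 rose, among them Mefv, encoding pyrin (4.44), and Casp4, encoding the caspase that binds intracellular LPS (2.63). Txnip, which links glucose metabolism to the inflammasome, fell (-1.12).

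Of 15 class II antigen presentation genes 3 rose and none fell, against 12.7% and 10.2% of all genes. The co-stimulatory receptors Cd40 (2.07) and Cd80 (0.88) were among those that rose. Cd74, the invariant chain, stood at 732, 775 and 560.2 under PBS and 594, 349.6, 540.3 and 232 under LPS, with overlapping groups (-0.76, adjusted p = 0.0736). Without KO_LPS_1 its difference was -0.95 (adjusted p = 0.0328), and it was called lower on TPM as deposited (-1.03) and after quantile normalisation (-0.99). By limma 5 class II members were lower at an unadjusted p under 0.05, and 2 were called lower by voom on recovered reads, 7 on TPM as deposited, 5 after quantile normalisation and 3 without KO_LPS_1. Of 22 class I and immunoproteasome genes 9 rose and 1 fell, and the largest rises were in H2-Q genes, whose copies share reads, such as H2-Q4 (1.51).

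**Figure D3:**
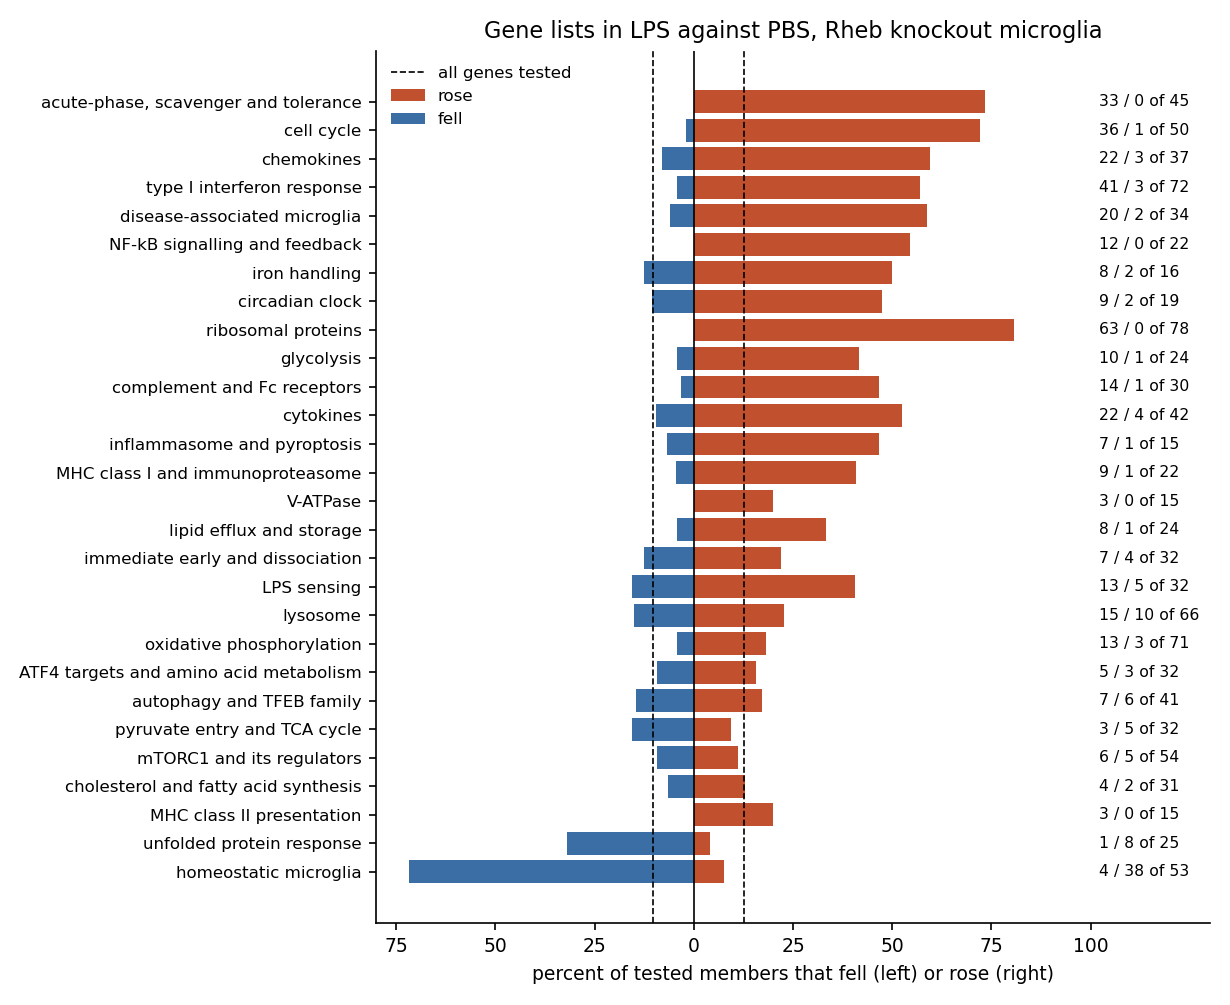
Percent of the tested members of each list that rose (orange, right) or fell (blue, left) under LPS in KO libraries, ordered by the median log2 difference, with the counts of rises, falls and members at the right. Dashed lines mark 12.7% and 10.2%, the shares over all genes tested. Of the 28 lists plotted, which leave out the cell type markers, ribosomal protein, acute-phase and cell cycle genes had the largest shares of rises and homeostatic microglia genes the largest share of falls.

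Homeostatic microglia genes fell in 38 of 53 tested members and rose in 4 (median -0.73). In 42 of the 53 every LPS library lay below every PBS library, against 14.3% of all genes. P2ry12, the receptor for ADP, stood at 3525, 3426 and 3474 under PBS and 1256, 1196, 1372 and 1789 under LPS (-1.33 ± 0.18 (SE), adjusted p = 0.000242). Tmem119, which drives Cre, stood at 1973, 1711 and 1902 under PBS and 783, 919.7, 810 and 1072 under LPS (-1.06 ± 0.13 (SE), adjusted p = 9.77e-05). Both were lower in every LPS library. KO_LPS_4, the shallowest library, was the highest of the 4 for both and also had the highest sum of microglia markers, 27990. Sall1, a transcription factor that defines microglia, stood at 499.5, 500.1 and 498 under PBS and 219, 124, 216 and 352 under LPS (-1.22 ± 0.24 (SE), adjusted p = 0.0033). Cst3, the secreted cathepsin inhibitor cystatin C, went from 13240 ± 906 (SD, n = 3) to 5767 ± 763 (n = 4) scaled TPM (-1.21 ± 0.24 (SE), adjusted p = 0.00354). The Cst3 call was lost in a fit of the 7 KO libraries alone (adjusted p = 0.0512) and without the filter on low genes (0.104). Cd164, a sialomucin, fell by 1.38.

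The members that rose included Runx1 (0.93) and Spi1 (0.59), transcription factors shared with other myeloid cells. Under LPS the summed microglia markers fell and the monocyte and neutrophil sums rose in these same libraries, and the part of either in the homeostatic values was not tested. In WT libraries, 16 of the 53 fell and 10 rose under LPS (median -0.19), against 13.2% and 16.0% of all genes in WT. The WT microglia marker sum was 31350 to 33160 under LPS. Under PBS it was 36520 in WT_PBS_904 and 35000 in WT_PBS_913, above all WT LPS libraries, and 30480 in WT_PBS_914, below them. WT_PBS_914 also held pituitary markers at 86000 scaled TPM and neutrophil markers at 23410. The log2 difference was lower in KO than in WT for all 53 members. The test of that difference called 1 of them, Nrros, and 26 had an unadjusted p under 0.05, against 11.1% of all genes. Both responses are set against PBS libraries of their own genotype.

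**Figure D4:**
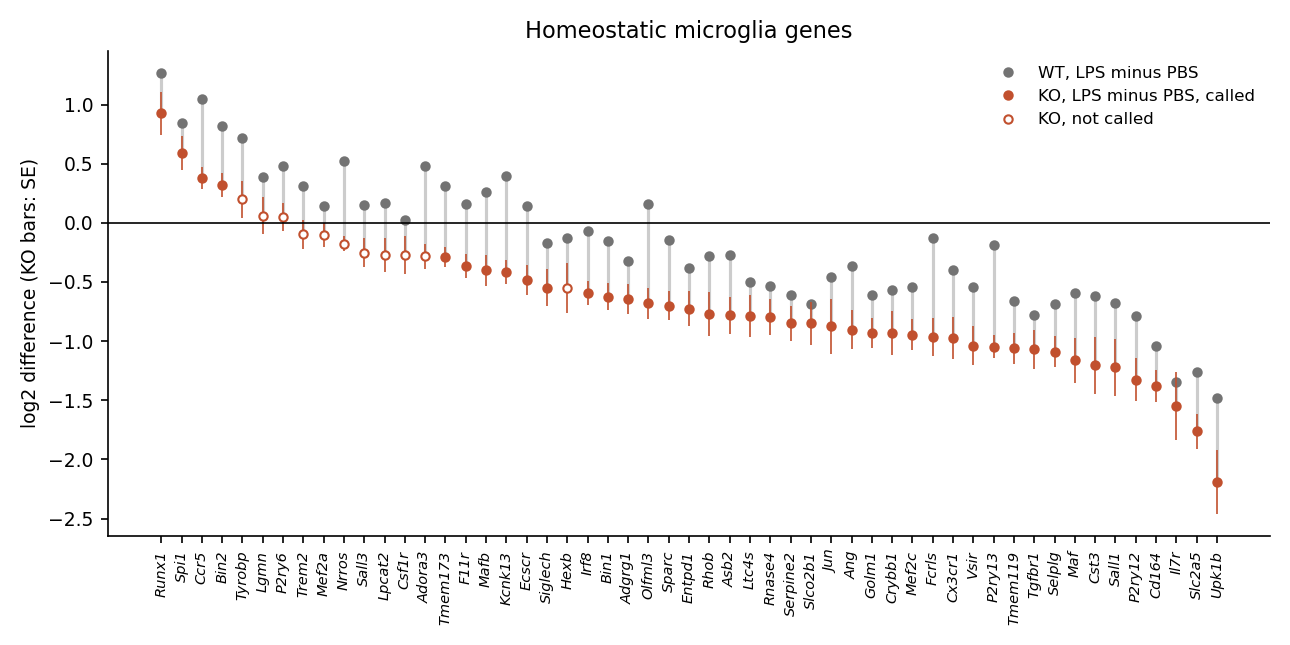
Log2 difference between LPS and PBS of the 53 homeostatic microglia genes, ordered by the KO value. Orange points are KO (filled where called, bars are the SE of the limma fit) and grey points WT. The KO value was below the WT value for all 53 genes.

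The disease-associated microglia list moved mostly upward, with 20 of 34 rising and 2 falling (median 0.84). Lyz2, the macrophage lysozyme, stood at 1565, 1519 and 1641 under PBS and 9533, 9671, 7160 and 6751 under LPS (2.38 ± 0.24 (SE), adjusted p = 2.74e-05), and Lgals3, galectin 3, rose by 2.01. Both are also expressed by monocytes. Apoe, the lipid carrier at the centre of this state, stood at 3154, 2933 and 2840 under PBS and 5073, 5798, 4631 and 3006 under LPS, with KO_LPS_4 within the PBS range (0.60, adjusted p = 0.16).

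Of 66 lysosome genes, which the title of the study names, 15 rose and 10 fell (median 0.10), a balance that turned with the scaling. On TPM as deposited 4 rose and 24 fell (median -0.17), and after quantile normalisation 9 rose and 21 fell (median -0.04). The rises numbered 9 without KO_PBS_911, 7 without KO_PBS_912 and 9 without KO_PBS_915. Acp5, given above, had the largest rise, and Gnptab, which tags lysosomal enzymes, rose by 0.76. Laptm5, a lysosomal membrane protein (-0.60), Pla2g15, a lysosomal phospholipase (-0.57), and Sort1, a sorting receptor (-0.66), fell, as did Cst3. Pla2g15 stood at 495, 485 and 491 under PBS and 322, 322, 322 and 356 under LPS, with a narrow spread in both groups. Ctsd, cathepsin D, stood at 4016, 3092 and 3527 under PBS and 2265, 3026, 2167 and 2606 under LPS (-0.50 ± 0.18 (SE), adjusted p = 0.0656). KO_LPS_2 was the highest of its LPS libraries, and without it the difference was -0.59 (adjusted p = 0.0301). Ctsd was also called lower on TPM as deposited (-0.77), after quantile normalisation (-0.68) and by voom (-0.55).

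Of 15 genes of the V-ATPase, which acidifies the lysosome, 3 rose and none fell (median 0.29), against 12.7% and 10.2% of all genes. Rises numbered 5 without KO_LPS_1 and 6 without KO_LPS_4, and none on TPM as deposited. Atp6v1b2 stood at 92.2, 92.5 and 87.2 under PBS and 123, 142, 128 and 123 under LPS (0.50 ± 0.12 (SE), adjusted p = 0.00755), a call lost on TPM as deposited (adjusted p = 0.0595). Of 41 autophagy genes 7 rose and 6 fell (median 0.03), against 12.7% and 10.2% of all genes. The counts were 3 and 17 on TPM as deposited (median -0.23), and after quantile normalisation 4 rose and 11 fell (median -0.05). Atg3, an enzyme of LC3 lipidation, rose by 0.53 and Tfec, a TFEB relative, by 1.32, while Rubcn, an inhibitor of autophagosome maturation, fell (-0.59). Rises numbered 4 without KO_PBS_911 or KO_PBS_912, and falls 3 without KO_PBS_911.

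Genes of the mTORC1 pathway, which Rheb activates, were called about as often as all genes. Of 54 members 6 rose and 5 fell, shares close to the 12.7% and 10.2% of all genes, with a median of -0.01. On TPM as deposited 1 rose and 23 fell (median -0.27), and after quantile normalisation 5 rose and 14 fell. Mtor, the kinase, stood at 26.6, 25.8 and 26.9 under PBS and 25.1, 22.8, 22.8 and 24.03 under LPS (-0.16 ± 0.07 (SE), adjusted p = 0.12). Mtor was called lower on TPM as deposited (-0.42, adjusted p = 0.0024), after quantile normalisation (-0.21, 0.03) and by voom (-0.21, 0.0413). Rptor, its scaffold, stood at 55.3, 46.6 and 54.1 under PBS and 34.3, 36.2, 34.2 and 43.4 under LPS, lower in all LPS libraries (-0.48 ± 0.12 (SE), adjusted p = 0.0113), a call lost without KO_PBS_911 (adjusted p = 0.0547). Eif4ebp1, a translation repressor that mTORC1 inactivates, rose (0.84). Ddit4 and Sesn1, stress-induced inhibitors of mTORC1, fell. Ddit4 stood at 1048, 572 and 763 under PBS and 132, 299, 259 and 399 under LPS (-1.61 ± 0.34 (SE), adjusted p = 0.00444), and Sesn1 at 114, 99.4 and 99.3 under PBS and 54.1, 48.2, 61.5 and 71.6 under LPS (-0.82 ± 0.14 (SE), adjusted p = 0.00122). Rises numbered 3 without KO_LPS_4, and falls 3 without KO_PBS_911.

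Genes of the ribosome, a process downstream of mTORC1, rose in 63 of 78 tested members and fell in none, with a median of 0.62. All 78 differences were positive. Rplp0, a stalk protein, stood at 1071, 1016 and 1205 under PBS and 1830, 3011, 1958 and 2177 under LPS (1.01 ± 0.16 (SE), adjusted p = 0.000896), and Rps2 and Rpsa rose by 1.11 and 1.10. The rises numbered 39 without KO_PBS_911 or KO_PBS_912, 43 after quantile normalisation (median 0.37) and 34 on TPM as deposited (median 0.35). Ribosomal protein genes are short, and gene length moved with the calls: among protein-coding genes split into 4 equal groups by length, 17.1% of the shortest rose and 9.05% fell, against 11.5% and 16.5% of the longest. The part of length in the ribosomal values was not tested, and reads of their pseudogenes can be shared. In WT, 69 of the 78 rose (median 0.69).

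Of 24 glycolysis genes 10 rose and 1 fell (median 0.59). Slc2a6, a hexose transporter, stood at 3.07, 3.32 and 4.47 under PBS and 45.97, 37.7, 31.1 and 33.3 under LPS (3.04 ± 0.36 (SE), adjusted p = 9.76e-05). Pfkfb3, which drives glycolysis through fructose 2,6-bisphosphate, rose by 1.66, Ldha, which makes lactate, by 1.08, and Hif1a, a regulator of these genes, by 0.98. Ldhb, the isoform that favours pyruvate, fell (-0.50). The rises numbered 5 without KO_PBS_911 or KO_PBS_912, and 6 without KO_LPS_1 or KO_PBS_915 and on TPM as deposited. In the list of pyruvate entry and the TCA cycle, 3 of 32 rose and 5 fell (median -0.01), against 12.7% and 10.2% of all genes. None rose and 13 fell on TPM as deposited (median -0.27), and after quantile normalisation 1 rose and 8 fell. The rises were 0 without KO_LPS_2, KO_PBS_911 or KO_PBS_912 and 1 without KO_LPS_1 or KO_PBS_915, and the falls 2 without KO_PBS_911 or KO_PBS_912 and 3 without KO_LPS_1 or KO_LPS_3. Idh2, mitochondrial isocitrate dehydrogenase, stood at 180.1, 178 and 176 under PBS and 99.5, 111, 91.5 and 89.5 under LPS (-0.86 ± 0.10 (SE), adjusted p = 5.29e-05), and Mpc1, of the mitochondrial pyruvate carrier, fell by 0.69.

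Of 71 nuclear-encoded oxidative phosphorylation genes 13 rose and 3 fell, against 12.7% and 10.2% of all genes, with a median of 0.04. With TPM as deposited, 4 rose and 29 fell (median -0.22), and after quantile normalisation 6 rose and 8 fell (median -0.09). Uqcrfs1, the Rieske protein of complex III, rose by 0.87 and Cox7a2l by 0.70, and Ndufa9, of complex I, fell (-0.40). The rises numbered 6 without KO_LPS_2 or KO_PBS_911, 7 without KO_PBS_912 or KO_PBS_915 and 8 without KO_LPS_3, and 8 genes fell without KO_LPS_2.

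In lipid metabolism, 8 of 24 genes of efflux and storage rose and 1 fell, and 6 rose and 5 fell on TPM as deposited. Ch25h, which makes 25-hydroxycholesterol, stood at 2.41, 2.56 and 4.097 under PBS and 113, 46.9, 80.1 and 91.1 under LPS (4.34 ± 0.38 (SE), adjusted p = 9.74e-06). Nr1h3, the oxysterol receptor LXR-alpha, stood at 3.03, 4.87 and 3.89 under PBS and 34.1, 38.2, 42.02 and 32.8 under LPS (2.95 ± 0.14 (SE), adjusted p = 1.13e-07). Apoc1 rose by 2.32, and Mylip, a ubiquitin ligase, fell (-0.86). Of 31 genes of cholesterol and fatty acid synthesis 4 rose, among them Mvd, of the mevalonate pathway (1.42), and 2 fell, the desaturase Fads1 (-0.50) and the sterol sensor Scap (-0.43). The share of rises was close to the 12.7% of all genes, and that of falls was below their 10.2%. Of the 31, 3 rose and 12 fell on TPM as deposited, and after quantile normalisation 3 rose and 6 fell.

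Iron genes rose in 8 of 16 members and fell in 2. Steap4, a metalloreductase, stood at 2.36, 3.003 and 3.45 under PBS and 111, 116, 62.8 and 49.4 under LPS (4.37 ± 0.42 (SE), adjusted p = 2.1e-05), Hmox1, haem oxygenase 1, rose by 2.22, and Cp, ceruloplasmin, by 1.89. In the unfolded protein response list 1 of 25 rose, Xbp1 (0.53; adjusted p = 0.0562 on TPM as deposited), and 8 fell, such as the ER chaperone Canx (-0.44). The falls numbered 19 on TPM as deposited and 17 after quantile normalisation, and 2 without KO_PBS_911, 4 without KO_LPS_3 or KO_PBS_912, 5 without KO_LPS_1 and 12 without KO_LPS_2. Of 32 ATF4 targets and amino acid genes 5 rose and 3 fell, shares close to the 12.7% and 10.2% of all genes. Nupr1 (1.31) was up and Phgdh, of serine synthesis (-0.71), down. Falls numbered 8 on TPM as deposited (median -0.22).

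Cell cycle genes rose in 36 of 50 members and fell in 1 (median 1.19). Mki67, the proliferation marker, stood at 7.46, 10.6 and 6.903 under PBS and 46.4, 39.7, 36.2 and 30.3 under LPS (2.08 ± 0.37 (SE), adjusted p = 0.00163). Birc5, Ccna2 and Ccnb1, genes of mitosis, rose by 1.87, 1.86 and 1.85. The member that fell was Ccnd1, the G1 cyclin D1, at 124, 126 and 124 under PBS and 70.2, 57.2, 70.2 and 75.9 under LPS (-0.86 ± 0.11 (SE), adjusted p = 0.000141), lower in all LPS libraries. In WT, 20 of the 50 rose and 1 fell (median 0.71), against 16.0% and 13.2% of all genes in WT. The difference of the responses was called for none of the 50. An unadjusted p under 0.05 was found for 6, a share close to the 11.1% of all genes.

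Clock genes also moved. Of 19, 9 rose and 2 fell (median 0.64). Nfil3 and Bhlhe40, which repress clock output, rose by 2.23 and 2.14, and Dbp and Per2 by 1.67 and 1.59, while Arntl, encoding BMAL1, stood at 9.98, 8.92 and 10.7 under PBS and 4.45, 4.45, 4.71 and 5.25 under LPS (-0.93 ± 0.18 (SE), adjusted p = 0.00285). The time of day of collection is not in the labels. Of 32 immediate early and dissociation genes 7 rose and 4 fell, against 12.7% and 10.2% of all genes. Nr4a1, Ier3 and Dusp2 rose by 2.84, 2.88 and 3.14. The falls numbered 1 without KO_PBS_911 or KO_PBS_912, and 8 on TPM as deposited.

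Markers of other cell types were read gene by gene. Of 16 monocyte markers 14 rose (median 2.21), such as Plac8 (15.2, 22.4 and 17.9 under PBS and 319, 302, 186 and 261 under LPS) and Vcan (3.07). Of 18 neutrophil markers 7 rose, 2 without KO_PBS_911 and 4 without KO_LPS_2. In a fit of the 7 KO libraries alone 11 rose, and also 11 without the 2 libraries rich in pituitary transcripts. Cxcr2, the receptor that brings neutrophils to Cxcl1 and Cxcl2, stood at 15.6, 25.5 and 20.4 under PBS and 128, 129, 69.5 and 64.8 under LPS (2.15 ± 0.44 (SE), adjusted p = 0.00395), and S100a8 had a log2 difference of 1.86, not called without KO_PBS_911 (adjusted p = 0.0788). Of 21 endothelial and mural markers 4 rose, against 12.7% of all genes, among them Vwf (2.11) and Pecam1 (1.48). The endothelial rises numbered 2 without KO_LPS_1, KO_LPS_3 or KO_PBS_911, and 10 without KO_LPS_2.

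Among lymphocyte markers, the granzyme genes Gzma and Gzmb rose by 2.17 and 2.08, and Il7r fell (-1.55). Cd3d, a defining T cell gene, was listed at 0 in 3 KO libraries and at 0.895 scaled TPM at most. Of B cell genes, Cd22, which microglia can also express, rose (1.62) and Ighm fell (-0.93). By limma no astrocyte, neuron or oligodendrocyte lineage marker of 12, 7 and 11 was called in KO, and 4, 0 and 0 had an unadjusted p under 0.05. Voom on recovered reads called none of these either, and 3 astrocyte markers fell without KO_LPS_1 and 4 on TPM as deposited. Of 14 choroid plexus markers 2 fell, and 11 were lower at an unadjusted p under 0.05. The falls numbered 13 on TPM as deposited, 5 after quantile normalisation and with the replicate block, 7 without KO_LPS_2, 3 without KO_LPS_1 or KO_PBS_915, 1 without KO_LPS_3 or KO_LPS_4, and 0 without KO_PBS_911 or KO_PBS_912.

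The LPS responses of the genotypes were set side by side over the same 18105 genes. In WT 5291 genes were called (29.2%), 2897 up and 2394 down. Of the 4146 KO calls, 95.5% had the same sign in WT, and 2636 were called in the same direction in both, which is 63.6% of KO calls and 49.8% of WT calls. Across genes, which are not independent replicates, the 2 responses correlated with Pearson's r of 0.684. Called in opposite directions were 10 genes. The comparisons share no library, and Xist and Ddx3y differed between treatments in WT as in KO.

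The test of the difference, KO response minus WT response, called 2 genes (0.0110%), and 2016 had an unadjusted p under 0.05 (11.1%). Hcar2, a receptor for hydroxybutyrate and nicotinic acid, stood in KO at 13.9, 18.8 and 12.8 under PBS and 256, 270.5, 202 and 198 under LPS, a rise of 3.85 on the log2 scale. In WT it stood at 2.96, 4.43 and 5.66 under PBS and 285, 267, 327 and 257 under LPS, a rise of 5.76, and the difference of the responses was -1.91 (adjusted p = 0.0439). The LPS libraries of the genotypes overlapped for Hcar2 and all KO PBS libraries lay above all WT PBS libraries. Nrros, which anchors latent TGF-beta on microglia, stood in KO at 217, 212 and 205 under PBS and 193, 196, 179 and 181 under LPS (-0.18, adjusted p = 0.0703), and was called lower in KO on TPM as deposited (-0.44), after quantile normalisation (-0.34) and by voom (-0.22). In WT it stood at 128, 115 and 111 under PBS and 164, 171, 166 and 180.4 under LPS, a rise of 0.52, and the difference was -0.70 (adjusted p = 0.0439). All KO PBS libraries lay above all WT PBS libraries, and under LPS the lowest KO library lay just below the highest WT library. Both differences kept their sign in all 29 other settings, and each was called in 11 of them. Leaving out KO_PBS_911, KO_PBS_912, KO_PBS_915, KO_LPS_1, WT_LPS_2, WT_LPS_3, WT_LPS_4, WT_PBS_904 or WT_PBS_913 left no gene called in this test, and there were 5 without KO_LPS_2 or WT_LPS_1, 1 without WT_PBS_914 and 54 without KO_LPS_4.

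Of the 2 called genes, Hcar2 belongs to the acute-phase, scavenger and tolerance list and Nrros to the homeostatic microglia list. The other lists were compared by the same test of the difference, in which none of their members was called. At an unadjusted p under 0.05 the response was lower in KO for 6.16% of all genes. It was lower for 24 of 66 lysosome, 11 of 25 unfolded protein response and 12 of 30 complement and Fc receptor genes. These lists were singled out after their values were seen, and the lean was not particular to them. It was also found for 12 of 34 disease-associated microglia, 10 of 42 cytokine and 8 of 32 LPS sensing genes. Among NF-kB genes 1 of 22 was lower at that p, and among ribosomal protein genes 0 of 78. Of 19 clock genes 9 passed that p, with 1 lower and the other 8 higher in KO. For lysosome genes the median log2 difference was 0.10 in KO and 0.32 in WT, where 31 rose and 3 fell. For the mTORC1 list the medians were -0.01 and 0.04, and 2 of 54 genes were lower in KO at that p. Microglia marker sums under LPS, 20170 to 27990 in KO and 31350 to 33160 in WT, moved with these values, and their part was not tested.

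**Figure D5:**
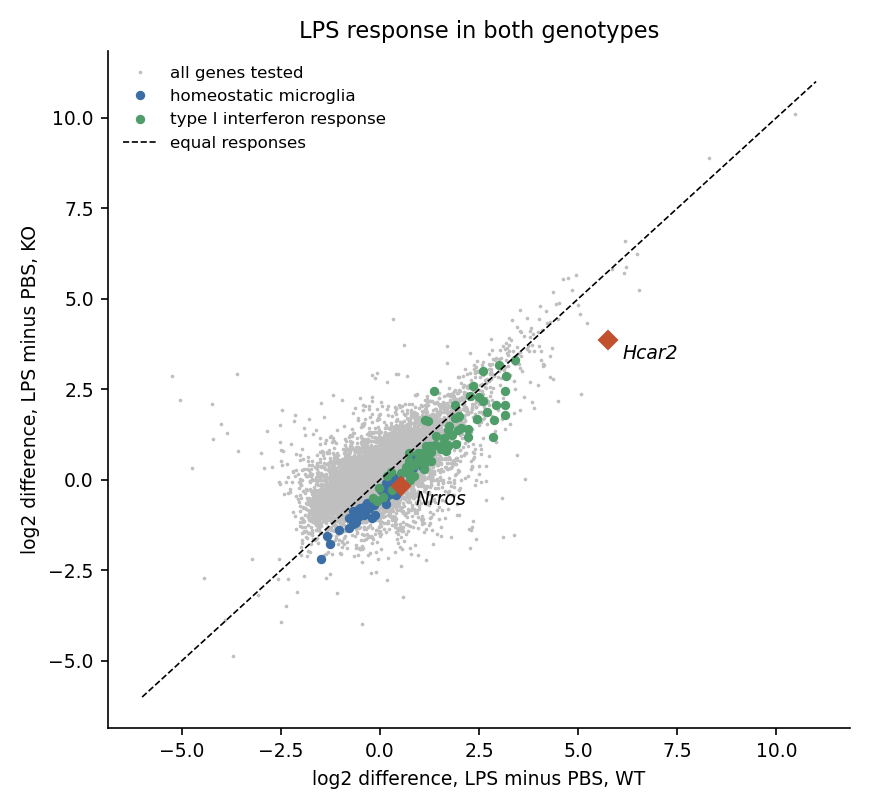
Log2 difference between LPS and PBS in KO (vertical) against WT (horizontal) for the 18105 genes tested, each point 1 gene. Homeostatic microglia genes are blue, interferon response genes green, and the 2 genes whose responses differed by the test, Hcar2 and Nrros, are orange diamonds below the dashed line of equal responses.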

How the data were processed

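RNA of brain microglia was sequenced per the labels, with a universal V8 library kit whose strand setting is not given in the sources used here. The authors deposited 1 table of TPM for all libraries. The submitters' processing notes name STAR 2.7.10b, featureCounts 2.0.1, cutadapt 4.4 and FastQC 0.11.9, without roles. Those notes name the human build hg38, while the gene identifiers are mouse Ensembl ones; 41672 of 41739 matched a symbol. Whole reads were recovered from TPM steps (98.4% to 98.5% of KO values whole within 0.02) and used for depth and 1 alternative only.

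TPM were divided by median-of-ratios factors over 15512 genes. log2(scaled TPM + 1) was fitted over 4 groups of 14 libraries with limma 3.58.1 (R 4.3.3; intensity trend, Benjamini-Hochberg over all 18105 genes; called at 0.05), after tests on simulated data. X, Y and mitochondrial genes (561, 7 and 32) were left out. Every KO library has the same alleles.

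The members and lists were chosen with earlier results of these data known, and lists came from general knowledge. Genes were named by rule: the 15 largest non-overlapping called changes per direction, up to 4 called members per list and direction, and always-named genes, in part (2 genes are not reported here); Csf1, Cxcl2, Gbp2, Gbp3, Ifit3, Nfkb2 were added after their values were seen. Promoter sequences are RefSeq's (GRCm38.p6).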

Additional observations from a re-analysis of the deposited data

Results flagged for a closer look

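For 9 of 158 named genes, 1 LPS library stood apart from the other 3 by Dixon's test at 95%, which chance gives for about 1 in 20 groups. KO_LPS_4 was higher than the others for Tgfbr1 (766 scaled TPM, others 475 to 518), Cx3cr1 (2698, others 1609 to 1788), Il21r (128.9, others 91.96 to 98.2) and Pla2g15 (356, others 322 to 322). KO_LPS_1 was higher for Acod1 (243, others 123 to 129), Gzma (48.2, others 21.6 to 24.9) and H2-Q4 (176, others 109 to 117). KO_LPS_2 was higher for Eif4ebp1 (52.4, others 28.5 to 30.8) and Runx1 (91.7, others 53.8 to 57.7).

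The LPS response differed between genotypes by the limma test for Hcar2 (-1.91, KO response minus WT response in log2) and Nrros (-0.70), both at an adjusted p of 0.0439. Over 29 other settings Hcar2 ranged from -2.11 to -1.40 (adjusted p 0.00881 to 0.209) and Nrros from -0.76 to -0.56 (adjusted p 0.0185 to 0.222).

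Xist, outside the genes tested, stood at 410.6 scaled TPM in the lowest LPS library of the knockout and at 0.124 in the highest PBS library.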

How the results depend on the processing

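Of 158 named genes, 138 kept their direction and their side of the threshold under all 24 settings. Many of them were named for large called changes, so this share does not carry over to all calls. Of the 4146 KO calls, 62.45% were kept without KO_PBS_911. Il6 reversed on TPM as deposited, to -0.14. The 4146 KO calls became 6323 on TPM as deposited and 1257 with a log2 difference of at least 1. A fit of the 7 KO libraries alone called 3266. With 1 KO library left out, the calls ranged from 2658 without KO_PBS_911 to 4197 without KO_LPS_4. On TPM as deposited the medians of 7 of 28 gene lists changed sign, and those of 4 after quantile normalisation. The 2 called differences of response became 4 with a pseudocount of 0.1 and without both libraries rich in pituitary transcripts, 0 on TPM as deposited, with robust variance moderation and by voom, 1 after quantile normalisation and without the intensity trend, 16 with library weights, and 0 to 54 leaving out 1 library. Replicate numbers 1 to 4 are shared by KO_LPS and WT_LPS alone, and same-numbered libraries did not deviate together (correlations 0.07, -0.06, -0.09 and -0.01). With the replicate block, 3889 KO calls and 0 differences were found, the Tnf call was lost (adjusted p = 0.0546) and Cd74 was called lower (0.0272). Voom on recovered reads (4223 KO calls) and a fit to features of 200 nt or more (4215) were chosen after seeing the data. The 8.00 M reads of KO_LPS_4 limit its low genes.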
